A study of Mus musculus with 9 samples.

Results

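Skin treated with bleomycin was compared with healthy control skin in wild-type mice. Bleomycin is a glycopeptide antibiotic that binds metal ions and cleaves DNA, and repeated exposure of mouse skin to it is a common laboratory model of the dermal scarring of systemic sclerosis. RNA had been sequenced from 3 control and 3 bleomycin libraries, which are 6 of the 9 libraries of the study. The other 3 libraries, from skin given bleomycin and nitrate, entered the fit only to estimate the spread between libraries. All animals carried the same labelled genotype, WT, and no allele or transgene was named. The route and dose of bleomycin, the interval before sampling, the age, sex and strain of the mice, and whether a library came from 1 animal or a pool were not stated. The p-values therefore reflect only how far these libraries spread, which may be technical. The table held 54532 genes. Of these, 14013 reached 1 FPKM (fragments scaled to gene length and library size) in at least 3 of the 6 libraries and were tested. Just inside this limit were Oip5 and Gm13339, whose third-highest values were 1.00052 and 1.00067 FPKM. Just outside it were Gm4654 and Nfasc, at 0.999471 and 0.998719 FPKM.

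The epidermis is a layered sheet in which keratinocytes divide at the base, move outward, and finally seal themselves into a cornified envelope of cross-linked proteins and lipids. When the sheet is wounded or inflamed, its keratinocytes switch to stress keratins, small proline-rich proteins, calcium-binding S100 proteins and cytokines. Below it, the fibroblasts of the dermis make the collagen fibres. In fibrosis, transforming growth factor beta (TGF-beta) and its relatives are known to drive them towards contractile, matrix-producing myofibroblasts.

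In bleomycin skin 707 genes rose and 556 fell, which is 5.05% and 3.97% of the genes tested and 9.01% in all. Genes of the outer epidermis rose, with 26 of 40 tested genes of the cornified envelope, all 7 of the stefin A protease inhibitors and all 4 stress keratins. Rises were also found for 7 of 9 neutrophil genes, 6 of 14 genes of the interleukin 1 and 36 family and 11 of 22 matrix genes of repair. Falls were found for 8 of 13 genes of the mitochondrial genome, 4 of 11 smooth muscle genes and 6 of 27 collagen genes, type I collagen among them. Some genes in these lists reached 1 FPKM in the 3 libraries of 1 group alone, which fixed their direction. They were 12 of the 40 envelope, 3 of the 9 neutrophil and 1 of the 22 repair genes upward, and 2 of the 27 collagen genes downward. Of 21 listed neutrophil genes only 9 were tested. The change was at least log2 1 in size for 416 of the genes that rose and 261 of those that fell.

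The libraries held 15804050, 18352592 and 18001979 reads in control 1, 2 and 3, as recovered from the table. In bleomycin 1, 2 and 3 they held 16383602, 16245572 and 17153360 reads. Genes with at least 1 read numbered 21427 to 22013 in control and 23267 to 24203 in bleomycin. All 8 defining markers of skin (Krt5, Krt14, Krt10, Krt1, Lor, Col1a1, Col3a1 and Dcn) were expressed in every library. Levels of hair follicle genes differed within each group. The mean log2(FPKM + 1) of the hair follicle list was 0.43, 3.38 and 5.47 in control and 1.29, 5.12 and 6.31 in bleomycin, so that control 1 and bleomycin 1 were lowest in these genes. Of the variance over the tested genes, 48.95% lay along a first component on which all control libraries were below all bleomycin libraries. A further 30.02% lay along a component that set control 1 and bleomycin 1 apart from the other 4. Skeletal muscle genes summed to 17705 to 26553 FPKM in control and 3745 to 16462 FPKM in bleomycin.

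Below, 3 values for a gene are FPKM in libraries 1, 2 and 3 of a group. Fold changes, in log2 units, are differences of mean log2(FPKM + 1) between bleomycin and control ± standard error from limma. The p-values were adjusted over all 14013 genes by the Benjamini-Hochberg method, and a gene with an adjusted p under 0.05 is said to have risen or fallen. The added 1 makes these differences smaller than log2 ratios of FPKM for genes of low level. Values of the bleomycin and control groups did not overlap in any called gene, while 36.4% of all tested genes had groups without overlap (18.6% higher and 17.8% lower). The filter fixed the direction of some calls. Of 154 genes that reached 1 FPKM only in the 3 bleomycin libraries 106 were called, and of 129 that did so only in the 3 control libraries 71 were called. Of the lists below, those of barrier lipid, antimicrobial, other chemokine, repair matrix, hypoxia and dendritic cell genes each had 1 member fixed upward. Those of cholesterol and clock genes each had 1 fixed downward. For other lists such members are given with the list. Among the genes that rose, the highest value lay in bleomycin 1 for 277, in bleomycin 2 for 186 and in bleomycin 3 for 244. The number of calls depended on each library. It was 695, 366 and 653 without control 1, 2 and 3, and 560, 721 and 569 without bleomycin 1, 2 and 3. It was 200 without both control 1 and bleomycin 1, a setting written as "without both" from here on. Genes named below as lost without both, and in no other setting, kept their calls in the other alternatives run. In all, 322 genes were called in the full comparison and in each of the 6 fits that left out 1 library, and these are called robust. As a share of tested genes, calls ran from 8.16% in the class of lowest expression to 11.2% in the highest.

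**Figure D1:**
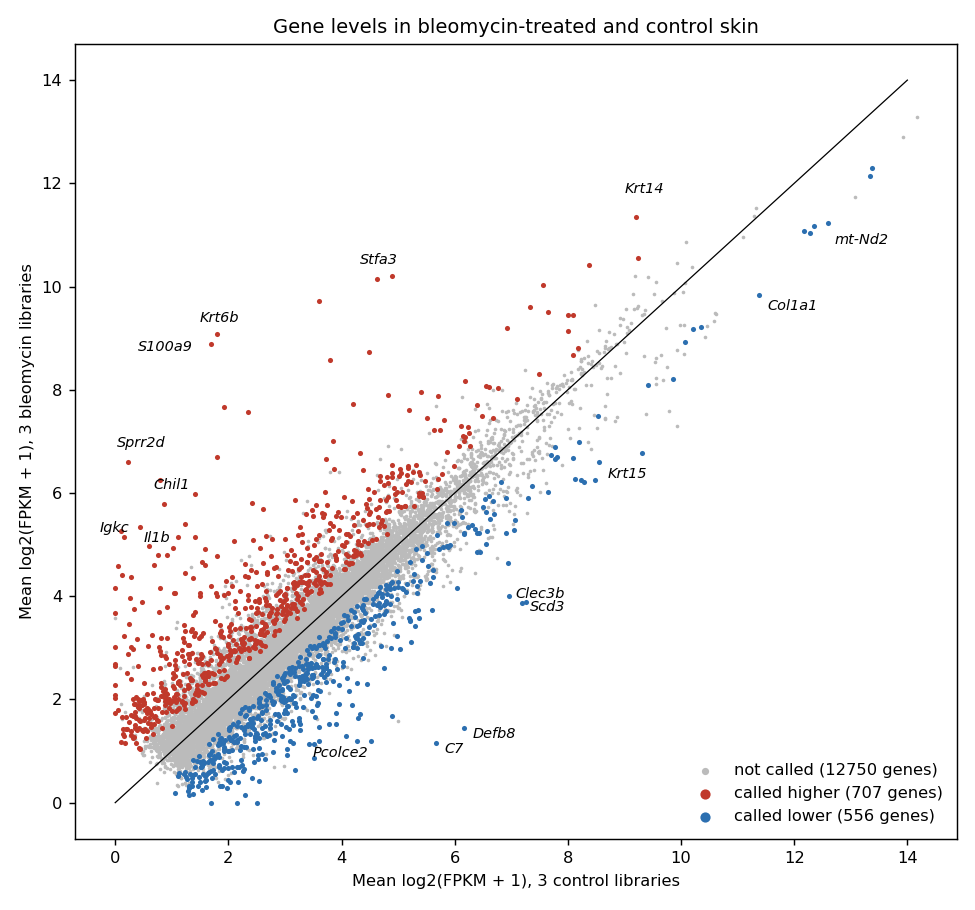
Mean log2(FPKM + 1) of 14013 tested genes in the 3 control libraries (horizontal axis) and the 3 bleomycin libraries (vertical axis), 1 point per gene, with the line of equal levels. The 707 genes that rose (red) include epidermal and inflammatory genes such as Krt6b, S100a9 and Sprr2d far above the line, and the 556 that fell (blue) include C7, Defb8 and the highly expressed Col1a1 and mt-Nd2.

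Genes known from the epidermis were prominent among the largest rises. All 4 stress keratins rose, with a median difference of 5.19 log2 units beside 0.0097 over all tested genes, and Krt16 and Krt6a did so robustly. Krt16 (ENSMUSG00000053797, chromosome 11, 100246091 to 100248902 in mm10), a keratin of wounded and hyperproliferative epidermis, stood at 37.3, 3.08 and 10.5 FPKM in control and 1364, 1273 and 347 FPKM in bleomycin. Every bleomycin library was above every control library, and bleomycin 3 was the lowest of its group. Krt16 rose by 6.12 ± 0.998 log2 units (adjusted p = 0.0116). Its partner Krt6a stood at 29.05, 13.5 and 24.6 FPKM in control and 638, 771 and 155 FPKM in bleomycin, again with bleomycin 3 lowest. Krt6a rose by 4.25 ± 0.68 log2 units (adjusted p = 0.0106). Krt6b had the largest difference of any called gene, at 21.2, 0 and 0.875 FPKM in control and 1011, 1039 and 147 FPKM in bleomycin. Krt6b rose by 7.28 ± 1.59 log2 units (adjusted p = 0.0322), but the control values ran from 0 to 21.2 FPKM and the call was not robust. Krt17, which also marks the outer root sheath of the hair follicle, went from 143, 178 and 314 to 624, 1029 and 599.9 FPKM. Krt17 rose by 1.86 ± 0.36 log2 units (adjusted p = 0.019). Among the ordinary keratins of the epidermis, Krt14 of the basal layer went from 766, 415 and 649 to 3217, 3882 and 1437 FPKM. Krt14 rose by 2.15 ± 0.41 log2 units (adjusted p = 0.0177). Its basal partner Krt5 stood at 704, 396 and 696 FPKM in control and 1263, 1422 and 910.4 FPKM in bleomycin and did not pass (1.02 ± 0.27, adjusted p = 0.0511), although quantile normalization and voom on recovered reads called it (adjusted p = 0.0466 and 0.0450, range 0.045 to 0.153). The suprabasal keratin Krt10, at 1219, 763 and 1402 FPKM in control and 2494, 1269 and 2076 FPKM in bleomycin, overlapped between groups (0.78 ± 0.46, adjusted p = 0.312). Krt1, also suprabasal, rose, but its call was lost on leaving out any of the 6 libraries (adjusted p = 0.0614 to 0.125). The call of Krt1 was also lost with no filter (0.0653), with replicate block (0.0775) and without both (0.14). Krt15, a keratin of basal cells and of the follicle bulge, stood at 363, 325 and 439.7 FPKM in control and 52.1, 127 and 131 FPKM in bleomycin, with bleomycin 1 lowest. Krt15 fell by 1.96 ± 0.34 log2 units (adjusted p = 0.0134), a robust call. The call of Krt6b was lost on leaving out control 2 and 3 (adjusted p = 0.121 and 0.0835), on leaving out bleomycin 1 and 2 (0.0809 and 0.0983), with pseudocount 0.1 (0.055), without both (0.0703) and with voom on recovered reads (0.13), over a range of 0.0117 to 0.13. The call of Krt17 was lost on leaving out control 1 and 2 (adjusted p = 0.0574 and 0.0762), on leaving out bleomycin 2 (0.0539) and without both (0.108), over a range of 0.0173 to 0.108. The call of Krt14 was lost on leaving out control 2 (adjusted p = 0.0719), on leaving out bleomycin 1 and 2 (0.0599 and 0.0519) and without both (0.0948), over a range of 0.0137 to 0.0948. The call of Krt6a (adjusted p = 0.078) was lost without both.

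Genes of the cornified envelope rose. Of 40 tested envelope genes 26 rose and 2 fell (Lce1m and Flg2), with a median difference of 2.40 log2 units, and 13 of the rises were robust. For 12 of the 40 the filter fixed the direction. The count of rises was 19, 13 and 20 without control 1, 2 and 3, 20, 24 and 17 without bleomycin 1, 2 and 3, and 11 without both. Rptn (ENSMUSG00000041984, chromosome 3, 93393699 to 93399442), which encodes the envelope protein repetin, stood at 2.63, 2.04 and 2.82 FPKM in control and 197, 82.01 and 65.9 FPKM in bleomycin. Control values were nearly equal and bleomycin 1 led its group. Rptn rose by 4.89 ± 0.56 log2 units (adjusted p = 0.00431). Sprr1b, a small proline-rich protein that is cross-linked into the envelope, stood at 10.6, 0.143 and 3.19 FPKM in control and 380.1, 213 and 103 FPKM in bleomycin. Its control values differed among themselves, with control 2 lowest, yet none came near the bleomycin range. Sprr1b rose by 5.74 ± 0.81 log2 units (adjusted p = 0.00802). Sprr2d, of the neighbouring Sprr2 family, stood at 0.192, 0 and 0.338 FPKM in control and 396, 35.3 and 61.7 FPKM in bleomycin. Sprr2d rose by 6.37 ± 0.94 log2 units (adjusted p = 0.00903). Lce3d, of the late cornified envelope family that is induced in injured skin, went from 0.266, 0 and 0 to 46.9, 11.99 and 14.4 FPKM. Lce3d rose by 4.30 ± 0.45 log2 units (adjusted p = 0.00345). In 9 called genes all 3 control libraries were listed at 0, at which up to 3 reads per library may have been missed by counting error. Against that limit Sprr2g, with 733 reads over the 3 bleomycin libraries, was at least 80.3-fold higher and Sprr2e, with 718 reads, at least 79.5-fold. Lce3f, with 239 reads, was at least 26.0-fold higher, and Lce3a and Lce3b at least 21.3-fold and 21.5-fold. Members of the Sprr2, Lce, Krt6 and Stfa families are near-identical in sequence, and reads may have been divided among them, so the value of a single member is uncertain. The call of Sprr2d was lost with voom on recovered reads (adjusted p = 0.191), over a range of 0.00498 to 0.191. The call of Sprr2e was lost on leaving out control 1, 2 and 3 (adjusted p = 0.0685, 0.0952 and 0.0719), on leaving out bleomycin 3 (0.0664), with no filter (0.0539), with only the 6 libraries in the fit (0.0614) and with voom on recovered reads (0.126), over a range of 0.00964 to 0.126. The call of Lce3a was lost on leaving out control 2 (adjusted p = 0.0622), over a range of 0.00611 to 0.0622. The call of Lce3b was lost on leaving out control 1, 2 and 3 (adjusted p = 0.0549, 0.0743 and 0.0578), on leaving out bleomycin 2 (0.0512) and without both (0.064), over a range of 0.00899 to 0.0743. The call of Lce3f (adjusted p = 0.0661) was lost without both.

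The stefin A genes encode small inhibitors of cysteine proteases, and all 7 that were tested rose (median 5.23 log2 units, 4 robust). The count was 6, 4 and 6 without control 1, 2 and 3, 5, 5 and 7 without bleomycin 1, 2 and 3, and 6 without both. Stfa3 was high in each bleomycin library, at 32.5, 9.96 and 40.5 FPKM in control and 1657, 1112 and 774 FPKM in bleomycin. Its neighbour Stfa2 stood at 2.499, 0 and 0.488 FPKM in control and 136, 64.3 and 49.1 FPKM in bleomycin. Stfa3 rose by 5.51 ± 0.51 log2 units (adjusted p = 0.00242). Stfa2 rose by 5.46 ± 0.52 log2 units (adjusted p = 0.00287).

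**Figure D2:**
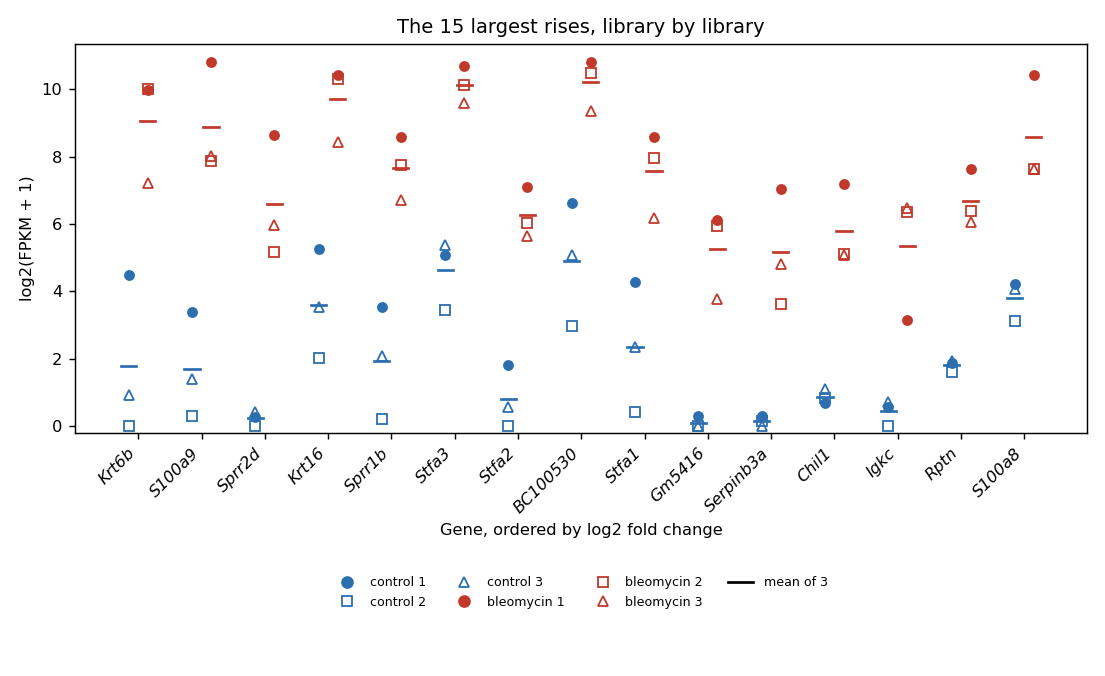
The 15 called genes with the largest log2 fold changes, with log2(FPKM + 1) of each library on the vertical axis, control in blue and bleomycin in red, and bars at the means of 3. Bleomycin 1 is the highest library for most of these genes, while Igkc, a light chain constant segment of antibodies, is lowest there, at 7.96 FPKM against 81.6 and 87.8 in bleomycin 2 and 3.

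The promoters of several of these genes share a short sequence. The activator protein 1 (AP-1) dimers of Fos and Jun proteins bind the site TGACTCA, and called genes of this kind include Junb, Fosl1 and Fosl2. Promoters were those of RefSeq for the mouse (GRCm38.p6, 250 bases before to 50 after each gene's start), searched on both strands. The letters TGACTCA occurred in 45 of 506 genes that rose and had a promoter in the table (8.89%) and in 24 of 406 that fell (5.91%). They occurred in 549 of all 10373 tested genes with a promoter (5.29%) and in 1607 of 27025 promoters of the table (5.95%). For the cAMP response element TGACGTCA, which does not contain the AP-1 letters, the shares were 3.16% of genes that rose, 1.48% of those that fell, 3.31% of all tested and 2.03% of the table. For the nuclear factor kappa B consensus they were 1.19%, 0.493%, 0.54% and 0.466%. For the CArG box of serum response factor they were 2.77%, 1.23%, 1.65% and 1.81%. Of the genes that rose by at least log2 2, 10 held an AP-1 site. The 60 bases around it are shown for the 8 of them in which this stretch lies wholly upstream of the start and within the promoter of the table, because these genes had large rises and include 4 neighbouring Sprr2 genes whose windows can be compared. Each is written 5′ to 3′ on the gene's strand, and capitals mark the site, TGACTCA or its reverse complement TGAGTCA.
Sprr2d: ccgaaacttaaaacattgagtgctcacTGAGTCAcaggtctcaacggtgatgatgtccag
Sprr2e: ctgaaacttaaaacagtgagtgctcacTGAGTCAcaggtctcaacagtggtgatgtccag
Sprr2i: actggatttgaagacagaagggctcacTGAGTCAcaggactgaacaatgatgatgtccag
Sprr2h: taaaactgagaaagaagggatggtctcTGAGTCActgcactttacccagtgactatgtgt
Sprr1a: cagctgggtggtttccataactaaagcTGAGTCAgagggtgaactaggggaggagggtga
Mmp13: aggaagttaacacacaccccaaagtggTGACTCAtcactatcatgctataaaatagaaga
Mmp12: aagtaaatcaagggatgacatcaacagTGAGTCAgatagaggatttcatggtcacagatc
Gpr35: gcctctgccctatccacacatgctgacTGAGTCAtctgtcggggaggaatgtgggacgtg
The windows of the Sprr2 genes lie at chr3:92338920-92338979, chr3:92351923-92351982, chr3:92407771-92407830 and chr3:92385460-92385519 on the plus strand. Those of Mmp13, Mmp12 and Gpr35 lie at chr9:7272452-7272511, chr9:7347303-7347362 and chr1:92978692-92978751 on the plus strand, and that of Sprr1a at chr3:92485995-92486054 on the minus strand. In Sprr2d, Sprr2e and Sprr2i the site begins at the same distance, 193 bases before the start, and in Sprr2h at 198 bases. Base for base, the Sprr2d window shares 56 of 60 letters with that of Sprr2e, 43 with Sprr2i and 28 with Sprr2h. The remaining 4 windows, which share 19 to 24 letters with it, carry the site at 35 (Mmp13), 44 (Mmp12), 146 (Sprr1a) and 184 (Gpr35) bases before the start. The log2 fold changes were 6.37 for Sprr2d, 4.54 for Sprr2i, 3.91 for Sprr2h, 3.67 for Sprr2e and 2.29 for Sprr1a. They were 3.005 for the collagenase gene Mmp13, 2.49 for the macrophage elastase gene Mmp12 and 2.06 for the G protein-coupled receptor gene Gpr35. A match describes the letters and not the binding of a factor.

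Genes of the proteolytic machinery that sheds the outermost cells rose as well. Of 22 tested desquamation proteases, cross-linking enzymes and inhibitors, 2 with their direction fixed by the filter, 16 rose (median 1.39 log2 units, 9 robust). The count was 12, 9 and 15 without control 1, 2 and 3, 11, 14 and 12 without bleomycin 1, 2 and 3, and 3 without both. Kallikrein-related peptidases are secreted serine proteases that cut the desmosomes of cornified cells. Klk13 stood at 1.31, 0.0518 and 0.426 FPKM in control and 59.6, 32.4 and 14.05 FPKM in bleomycin, with bleomycin 1 highest. Klk13 rose by 4.37 ± 0.51 log2 units (adjusted p = 0.00437). Klk10, with little spread in control, stood at 23.6, 24.9 and 25.6 FPKM in control and 90.5, 78.2 and 58.9 FPKM in bleomycin. Klk10 rose by 1.56 ± 0.18 log2 units (adjusted p = 0.00396). Klk9 rose by 2.68 ± 0.32 log2 units (adjusted p = 0.00451) and Klk8 rose by 1.86 ± 0.27 log2 units (adjusted p = 0.0077). Klk14 was listed at 0 in all control libraries and was at least 30.7-fold higher in bleomycin. Blmh (ENSMUSG00000020840, chromosome 11, 76924809 to 76987379) encodes the cysteine protease that inactivates bleomycin and that also breaks down filaggrin in the cornified layer. It stood at 21.99, 18.4 and 22.8 FPKM in control and 63.3, 44.6 and 47.6 FPKM in bleomycin, so that no bleomycin value came near the control range. Blmh rose by 1.25 ± 0.18 log2 units (adjusted p = 0.00823). The calls of Klk8 and Blmh (adjusted p = 0.0646 to 0.0661) were lost without both.

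Lipid, contact and growth factor genes of the epidermis moved less uniformly. Of 21 enzymes of barrier lipids 4 rose, at counts of 3, 3 and 4 without control 1, 2 and 3, 3, 3 and 3 without bleomycin 1, 2 and 3, and 0 without both. Among them were Degs2, which makes phytoceramide (2.24 ± 0.32, adjusted p = 0.00791), and the ceramide synthase gene Cers3 (1.27 ± 0.21, adjusted p = 0.0115). Of 21 desmosome and gap junction genes 6 rose, none of them robustly, at counts of 1, 0 and 8 without control 1, 2 and 3, 1, 1 and 6 without bleomycin 1, 2 and 3, and 0 without both. Of 12 ligands and receptors of the epidermal growth factor family 3 rose and 1 fell. Rises numbered 2, 0 and 2 without control 1, 2 and 3, 2, 4 and 1 without bleomycin 1, 2 and 3, and 1 without both. Epgn, a ligand, went from 2.79, 1.12 and 2.36 to 43.05, 22.1 and 13.1 FPKM. Epgn rose by 3.02 ± 0.49 log2 units (adjusted p = 0.011). The ligand gene Hbegf went from 5.73, 3.78 and 2.71 to 50.4, 12.7 and 20.1 FPKM. Hbegf rose by 2.32 ± 0.45 log2 units (adjusted p = 0.0193). Btc, a further ligand, went from 8.02, 5.57 and 10.3 to 2.23, 1.57 and 2.20 FPKM. Btc fell by 1.55 ± 0.23 log2 units (adjusted p = 0.00825), the robust call of the family. The call of Epgn was lost on leaving out control 2 (adjusted p = 0.0505) and without both (0.0661), over a range of 0.0101 to 0.0661. The call of Hbegf was lost on leaving out control 2 and 3 (adjusted p = 0.0749 and 0.0619) and on leaving out bleomycin 3 (0.0533), over a range of 0.00889 to 0.0749. The calls of Degs2, Cers3 and Btc (adjusted p = 0.0661 to 0.073) were lost without both.

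Many of these genes are neighbours. Among 2042 windows of 1 Mb that hold a tested gene, 7 held at least 5 genes that rose and 3 held at least 5 that fell. On chromosome 3, between 92000001 and 93000000, 27 of 45 tested genes rose. This is the epidermal differentiation complex, with the Sprr and Lce genes. On chromosome 7, between 43000001 and 44000000, 9 of 19 rose, 8 of them kallikreins. In the stefin A cluster on chromosome 16, between 36000001 and 37000000, 8 of 15 rose. On chromosome 2, between 24000001 and 25000000, 5 of 15 rose, among them Il1f6, Il1f8, Il1f9 and Il1rn of the IL-36 and IL-1 family. Genes that fell were grouped in the mitochondrial genome (14 of 30) and in the Serpina3 cluster on chromosome 12, between 104000001 and 105000000 (5 of 15). A further group lay on chromosome 1, between 24000001 and 25000000 (5 of 9, all of them gene models with Gm numbers). That stretch is known to hold a nuclear copy of mitochondrial sequence, with which the mitochondrial genes can share reads. Neighbouring members of a family can share reads too, so such counts are not counts of independent genes.

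Cytokines that keratinocytes and myeloid cells release on damage rose. Of 14 genes of the IL-1 and IL-36 family, 6 rose and 1, the decoy receptor gene Il1r2, fell. The count of rises was 4, 3 and 6 without control 1, 2 and 3, 4, 6 and 4 without bleomycin 1, 2 and 3, and 1 without both. Il1b (ENSMUSG00000027398, chromosome 2, 129364570 to 129371139), the main secreted form of IL-1, stood at 1.23, 1.03 and 0.452 FPKM in control and 29.5, 17.4 and 37.3 FPKM in bleomycin. Here bleomycin 3 was highest, and the lowest bleomycin value was far above the highest control value. Il1b rose by 3.89 ± 0.36 log2 units (adjusted p = 0.00249). Il1f6, which encodes IL-36 alpha, stood at 1.70, 0.943 and 1.43 FPKM in control and 69.2, 23.8 and 43.03 FPKM in bleomycin. Il1f6 rose by 4.18 ± 0.57 log2 units (adjusted p = 0.0066). The receptor antagonist gene Il1rn stood at 5.98, 3.85 and 6.41 FPKM in control and 15.9, 11.97 and 14.6 FPKM in bleomycin. Il1rn rose by 1.26 ± 0.17 log2 units (adjusted p = 0.00713). Both are expressed in epidermis. The neutrophil-attracting chemokine genes Cxcl5, Cxcl1 and Cxcl2 rose, out of 4 tested in their list, and each reached 1 FPKM in the bleomycin libraries alone. Cxcl5 stood at 0.386, 0 and 0 FPKM in control and 10.2, 13.2 and 4.23 FPKM in bleomycin. Cxcl5 rose by 3.08 ± 0.36 log2 units (adjusted p = 0.00437). Its relative Cxcl1 stood at 0.977, 0.444 and 0.153 FPKM in control and 7.20, 3.66 and 13.5 FPKM in bleomycin. Cxcl1 rose by 2.46 ± 0.38 log2 units (adjusted p = 0.00921). Of 23 other chemokine genes 4 rose (counts of 7, 2 and 2 without control 1, 2 and 3, 2, 3 and 2 without bleomycin 1, 2 and 3, and 2 without both). Ccl4, which attracts lymphocytes and monocytes, went from 1.29, 0.541 and 0.436 to 5.39, 6.38 and 10.4 FPKM (2.24 ± 0.32, adjusted p = 0.0077). Cxcl16, a chemokine that also exists in a membrane-bound form, went from 8.25, 6.04 and 8.49 to 25.7, 21.8 and 26.6 FPKM (1.59 ± 0.24, adjusted p = 0.00871). The calls of Il1f6, Il1rn, Cxcl1 and Cxcl16 (adjusted p = 0.0578 to 0.0707) were lost without both.

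Genes of other cytokine families changed in part. In the IL-6 family, 5 of 12 genes rose and Lifr fell. The number of rises was 4, 2 and 3 without control 1, 2 and 3, 3, 5 and 5 without bleomycin 1, 2 and 3, and 2 without both. Il6 itself was low, at 0.0808, 0.171 and 0.19 FPKM in control and 1.11, 1.38 and 2.83 FPKM in bleomycin. Il6 rose by 1.22 ± 0.23 log2 units (adjusted p = 0.0173). For Il6 and 2 others of the 5 rises, and for Il19 and Nlrp3 below, the filter fixed the direction, since they reached 1 FPKM in the bleomycin libraries alone. Socs3, the feedback inhibitor that its signal induces, stood at 14.2, 8.76 and 8.18 FPKM in control and 64.6, 34.04 and 55.9 FPKM in bleomycin. Socs3 rose by 2.19 ± 0.28 log2 units (adjusted p = 0.00559). Il19, of the IL-20 family that acts on keratinocytes, went from 0, 0 and 0.1 to 3.36, 3.17 and 1.28 FPKM. Il19 rose by 1.75 ± 0.24 log2 units (adjusted p = 0.00725). The gene of a receptor chain for it, Il20ra, went from 5.33, 3.92 and 7.60 to 1.24, 1.78 and 1.33 FPKM. Il20ra fell by 1.40 ± 0.20 log2 units (adjusted p = 0.00793). Of 23 Toll-like receptor and inflammasome genes, 2 with their direction fixed by the filter, 5 rose (median 0.62 log2 units), at counts of 4, 2 and 3 without control 1, 2 and 3, 3, 3 and 3 without bleomycin 1, 2 and 3, and 0 without both. They included the inflammasome sensor gene Nlrp3 (1.27 ± 0.23, adjusted p = 0.0139) and the pore-forming gasdermin gene Gsdmc (3.32 ± 0.59, adjusted p = 0.0142). The call of Il6 was lost on leaving out control 1 and 2 (adjusted p = 0.0522 and 0.0625) and without both (0.0702), over a range of 0.016 to 0.0702. The call of Gsdmc was lost on leaving out bleomycin 1 (adjusted p = 0.051) and without both (0.0742), over a range of 0.0144 to 0.0742. The calls of Il19, Il20ra and Nlrp3 (adjusted p = 0.0661 to 0.0888) were lost without both.

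Antimicrobial genes and genes of neutrophils were among the steepest changes. S100a9, a subunit of calprotectin that both neutrophils and stressed keratinocytes make, stood at 9.52, 0.228 and 1.65 FPKM in control and 1792, 232 and 258 FPKM in bleomycin. Bleomycin 1 stood far above the other bleomycin libraries, which still lay above every control. S100a9 rose by 7.20 ± 1.15 log2 units (adjusted p = 0.0121). Of 9 tested neutrophil genes 7 rose, and the summed level of the list was 17.5 to 42.9 FPKM in control and 486 to 3251 FPKM in bleomycin. In the bleomycin libraries most of that sum came from S100a8 and S100a9. The count of rises was 5, 4 and 4 without control 1, 2 and 3, 5, 6 and 5 without bleomycin 1, 2 and 3, and 4 without both. For 3 of the 9 the filter fixed the direction. The granulocyte chemokine receptor gene Cxcr2 stood at 0.451, 0 and 0.34 FPKM in control and 9.74, 6.15 and 5.38 FPKM in bleomycin. Cxcr2 rose by 2.66 ± 0.28 log2 units (adjusted p = 0.00345). Clec4d, which encodes a C-type lectin receptor of myeloid cells, stood at 2.41, 0.93 and 1.01 FPKM in control and 7.60, 9.82 and 9.93 FPKM in bleomycin. Clec4d rose by 2.09 ± 0.23 log2 units (adjusted p = 0.00396). Of genes below the filter, Ly6g, Mpo and Elane were at or near 0, with 0, 7 and 1 reads over the control libraries and 1, 3 and 2 over the bleomycin libraries. Other myeloid genes below the filter differed from these. Trem1 went from 0 to 221 reads, Fpr2 from 31 to 165 and Retnlg from 1 to 58, while Camp went from 33 to 17. In bulk tissue, a change in the number of cells of a type cannot be told apart from a change in RNA per cell. Of 16 antimicrobial genes 8 rose and 1 fell, and the count of rises was 5, 2 and 3 without control 1, 2 and 3, 2, 3 and 6 without bleomycin 1, 2 and 3, and 2 without both. Slpi, an inhibitor of neutrophil elastase, stood at 2.55, 0.353 and 0.78 FPKM in control and 26.6, 17.4 and 8.03 FPKM in bleomycin. Slpi rose by 3.02 ± 0.46 log2 units (adjusted p = 0.00903). Chil1, a chitinase-like protein, stood at 0.606, 0.764 and 1.15 FPKM in control and 144, 33.2 and 32.5 FPKM in bleomycin. Chil1 rose by 4.91 ± 0.62 log2 units (adjusted p = 0.00519). Defb8, a beta-defensin, had the largest fall of any called gene and went from 40.8, 91.6 and 95.6 to 0, 4.42 and 2.77 FPKM. Defb8 fell by 4.72 ± 0.76 log2 units (adjusted p = 0.011). The call of S100a9 was lost with voom on recovered reads (adjusted p = 0.0825), over a range of 0.00261 to 0.0825. The call of Defb8 was lost on leaving out control 2 (adjusted p = 0.0505) and with pseudocount 0.1 (0.0863), over a range of 0.00356 to 0.0863.

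Lymphocyte genes rose in part. Of 12 tested genes of T and cytotoxic lymphocytes 5 rose (median 0.83 log2 units), at counts of 4, 4 and 4 without control 1, 2 and 3, 6, 3 and 3 without bleomycin 1, 2 and 3, and 3 without both. For 3 of the 5 rises (Cd4, Cd2 and Cd5) the filter fixed the direction. The summed level of the list was 69.3 to 72.7 FPKM in control and 104.7 to 142 FPKM in bleomycin. The T cell receptor alpha constant gene Trac stood at 0.14, 1.34 and 0.923 FPKM in control and 4.53, 5.43 and 5.52 FPKM in bleomycin, with all bleomycin values above all control values. Trac rose by 1.83 ± 0.29 log2 units (adjusted p = 0.00936). Cd3e, a further subunit of the receptor, lay below the filter with 143 reads over the control and 145 over the bleomycin libraries. Of 10 genes of the regulatory and co-stimulation list 4 rose, all 4 with their direction fixed by the filter, at counts of 3, 2 and 2 without control 1, 2 and 3, 4, 3 and 2 without bleomycin 1, 2 and 3, and 1 without both. One of them, Tnfrsf9, a co-stimulatory receptor of activated T cells, went from 0.505, 0.24 and 0.127 to 3.63, 2.82 and 2.06 FPKM (1.56 ± 0.19, adjusted p = 0.00491). The antibody genes Igkc and Igha were highest in bleomycin 2 and 3. Igkc stood at 0.492, 0 and 0.649 FPKM in control and 7.96, 81.6 and 87.8 FPKM in bleomycin. Igkc rose by 4.90 ± 0.86 log2 units (adjusted p = 0.0146). The IgA heavy chain gene Igha stood at 0.319, 0.424 and 0.41 FPKM in control and 3.06, 28.9 and 25.7 FPKM in bleomycin, with bleomycin 1 again far below bleomycin 2 and 3. Igha rose by 3.42 ± 0.70 log2 units (adjusted p = 0.0226). Of 17 B and plasma cell genes 4 were tested, and Igkc, Igha and the syndecan gene Sdc1, which keratinocytes also express, rose. For Igkc and Igha the filter fixed the direction. The B cell marker Ms4a1 had 0 reads in control and 10 in bleomycin. Other genes below the filter went both ways. Jchain had 7 reads in control and 713 in bleomycin, the heavy chain gene Ighg1 146 and 70, and Mzb1 37 and 25. The call of Igkc was lost on leaving out control 2 (adjusted p = 0.0677) and with voom on recovered reads (0.174), over a range of 0.00429 to 0.174. The call of Igha was lost on leaving out control 1, 2 and 3 (adjusted p = 0.061, 0.0831 and 0.0619), on leaving out bleomycin 2 and 3 (0.0641 and 0.0805) and with voom on recovered reads (0.13), over a range of 0.00327 to 0.13. The call of Sdc1 was lost on leaving out control 1 and 2 (adjusted p = 0.0526 and 0.0659), on leaving out bleomycin 1 (0.051) and without both (0.12), over a range of 0.0146 to 0.12.

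Mast cell genes changed in both directions, mostly upward. Of 12 tested mast cell and basophil genes 7 rose and 1 fell, with a summed level of 64.04 to 115 FPKM in control and 191 to 254 FPKM in bleomycin. The count of rises was 3, 3 and 3 without control 1, 2 and 3, 6, 2 and 2 without bleomycin 1, 2 and 3, and 2 without both. Fcer1a, a chain of the high-affinity IgE receptor, stood at 0.0655, 0.179 and 0.288 FPKM in control and 5.90, 7.23 and 5.97 FPKM in bleomycin. Fcer1a rose by 2.64 ± 0.23 log2 units (adjusted p = 0.00196). The tryptase gene Tpsb2 stood at 14.6, 17.6 and 10.3 FPKM in control and 43.9, 50.1 and 44.8 FPKM in bleomycin, and both genes had narrow ranges within each group. Tpsb2 rose by 1.67 ± 0.26 log2 units (adjusted p = 0.00958). Mrgprb2, a receptor of connective tissue mast cells, went from 2.52, 2.95 and 2.22 to 1.09, 1.33 and 1.23 FPKM. Mrgprb2 fell by 0.68 ± 0.13 log2 units (adjusted p = 0.0171). The alarmin gene Il33 stood at 10.3, 7.36 and 8.51 FPKM in control and 55.6, 45.6 and 24.3 FPKM in bleomycin. Il33 rose by 2.07 ± 0.41 log2 units (adjusted p = 0.021). Il31ra, the receptor gene of the itch cytokine IL-31, went from 2.502, 1.64 and 2.04 to 0.26, 0.254 and 0.2 FPKM. Il31ra fell by 1.295 ± 0.16 log2 units (adjusted p = 0.00511). The filter fixed the direction of Il31ra and of Fcer1a, which reached 1 FPKM in the control and in the bleomycin libraries alone, respectively. The call of Mrgprb2 was lost on leaving out control 2 (adjusted p = 0.0712), on leaving out bleomycin 1 and 3 (0.0587 and 0.0547) and without both (0.12), over a range of 0.0168 to 0.12. The call of Il33 was lost on leaving out control 2 and 3 (adjusted p = 0.0867 and 0.0604), on leaving out bleomycin 1 and 2 (0.0672 and 0.0624) and without both (0.119), over a range of 0.0117 to 0.119. The calls of Tpsb2 and Il31ra (adjusted p = 0.0513 to 0.0723) were lost without both.

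In the monocyte and macrophage list 4 of 22 genes rose, none robustly, at counts of 1, 0 and 1 without control 1, 2 and 3, 1, 2 and 1 without bleomycin 1, 2 and 3, and 0 without both. Lyz2, the lysozyme of macrophages, stood at 275, 305 and 201 FPKM in control and 602, 585 and 983 FPKM in bleomycin. Lyz2 rose by 1.45 ± 0.31 log2 units (adjusted p = 0.027). Itgax, an integrin of dendritic cells, went from 1.17, 2.17 and 2.40 to 5.48, 11.5 and 9.04 FPKM. Itgax rose by 1.71 ± 0.28 log2 units (adjusted p = 0.011). None of the 8 tested genes of the list of MHC class II presentation passed in the comparison as reported (limma) or with voom. All 8 were nevertheless higher without overlap, beside 18.6% of all tested genes. Each had an unadjusted p under 0.05, and the median was 1.15 log2 units. Among them Ctss, a protease that trims the class II invariant chain, had the lowest p and stood at 122, 51.2 and 53.3 FPKM in control and 191, 201 and 318 FPKM in bleomycin (1.72 ± 0.46, adjusted p = 0.0541). With only the 6 libraries in the fit 4 of the 8 were called, and 1 without control 1. Ctss was called in both settings (adjusted p = 0.0371 and 0.0418, range 0.0371 to 0.186). A further gene of class II presentation, H2-DMb2, was counted in the dendritic and Langerhans cell list. H2-DMb2 rose by 0.94 ± 0.20 log2 units (adjusted p = 0.0244). Its call was lost in 7 of the 16 alternatives run for it, over a range of 0.0143 to 0.12. Of 33 interferon-stimulated genes none passed with limma or voom, and 1 was higher at an unadjusted p under 0.05. The call of Lyz2 was lost on leaving out control 1, 2 and 3 (adjusted p = 0.0618, 0.0672 and 0.0815), on leaving out bleomycin 1 and 3 (0.058 and 0.0831), with no filter (0.0526), with replicate block (0.0517) and without both (0.113), over a range of 0.0239 to 0.113.

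**Figure D3:**
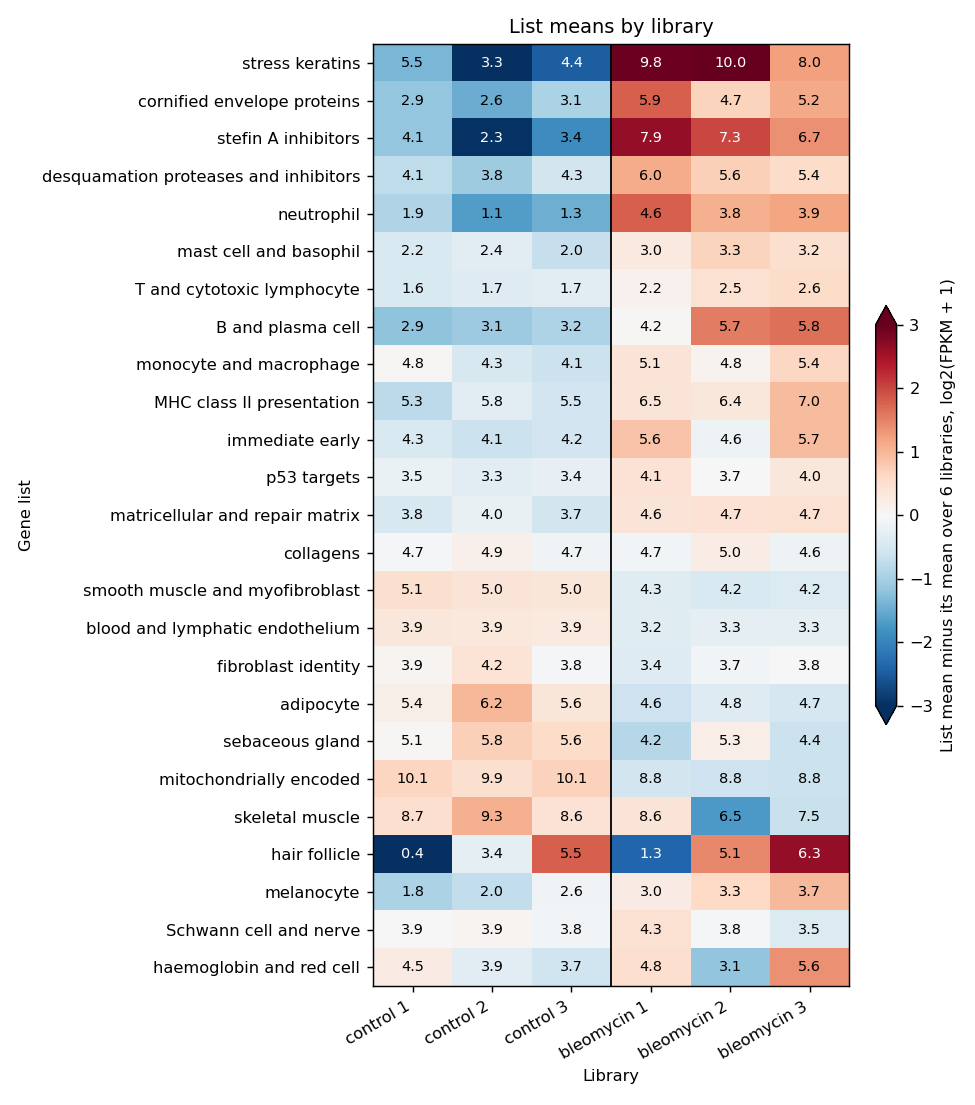
Mean log2(FPKM + 1) of the tested members of 25 gene lists in each of the 6 libraries, printed in each cell, with the colour showing the distance from the mean of the 6 libraries. Stress keratin, stefin A, envelope and neutrophil lists are higher in all 3 bleomycin libraries, smooth muscle, endothelial and mitochondrial lists are lower in all 3, and the hair follicle list instead sets control 1 and bleomycin 1 (0.4 and 1.3) apart from the rest.

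Genes that respond to DNA damage rose in part. Of 29 p53 target genes 9 rose (median 0.52 log2 units, 3 robust), at counts of 3, 3 and 5 without control 1, 2 and 3, 3, 9 and 3 without bleomycin 1, 2 and 3, and 1 without both. Pmaip1, which encodes the pro-apoptotic protein NOXA, stood at 1.48, 1.28 and 2.07 FPKM in control and 13.5, 9.88 and 11.2 FPKM in bleomycin. The groups were narrow and well apart. Pmaip1 rose by 2.27 ± 0.16 log2 units (adjusted p = 0.00132). The mitotic spindle gene Psrc1 rose by 1.75 ± 0.27 log2 units (adjusted p = 0.00903). The polo-like kinase gene Plk2 rose by 0.99 ± 0.16 log2 units (adjusted p = 0.0115). Cdkn1a, the cell cycle inhibitor p21 and the best-known target, stood at 76.1, 66.7 and 66.7 FPKM in control and 168, 93.9 and 159.7 FPKM in bleomycin, with bleomycin 2 the lowest of its group. Cdkn1a rose by 0.96 ± 0.24 log2 units (adjusted p = 0.0442). Trp53 itself did not pass, at 12.03, 8.62 and 9.53 FPKM in control and 12.8, 15.1 and 13.5 FPKM in bleomycin (0.43 ± 0.21, adjusted p = 0.236). Of 14 genes of the senescence and secretory list 5 rose and 1 fell (median 0.45 log2 units, 1 robust rise), and 5 estimates were below 0. The filter fixed the direction of 1 of the 14 upward. Rises of that list numbered 1 to 4 with 1 library left out and 2 without both. The Ink4 family inhibitor genes Cdkn2b and Cdkn2a, which are used as markers of senescence, rose. Cdkn2b stood at 4.66, 4.41 and 7.20 FPKM in control and 17.9, 15.2 and 15.3 FPKM in bleomycin. Cdkn2b rose by 1.44 ± 0.16 log2 units (adjusted p = 0.00396), a robust call. Cdkn2a stood at 1.06, 0.457 and 0.687 FPKM in control and 12.8, 10.5 and 12.9 FPKM in bleomycin. Cdkn2a rose by 2.92 ± 0.69 log2 units (adjusted p = 0.0368). None of 38 cell cycle genes passed in the comparison as reported (limma) or with voom. Ccnd1 and Aurka were called with only the 6 libraries in the fit (adjusted p = 0.0420 and 0.0306, ranges 0.042 to 0.248 and 0.0306 to 0.205). At an unadjusted p under 0.05, 10 of the list were higher, all 38 estimates were above 0 and the median was 0.61 log2 units. The call of Cdkn1a was lost on leaving out control 1, 2 and 3 (adjusted p = 0.0816, 0.143 and 0.115), on leaving out bleomycin 1 and 3 (0.116 and 0.14), with no filter (0.0843), with only the 6 libraries in the fit (0.05), with hair follicle covariate (0.0573) and without both (0.172), over a range of 0.0163 to 0.172. The call of Cdkn2a was lost on leaving out control 1, 2 and 3 (adjusted p = 0.0756, 0.131 and 0.0926), on leaving out bleomycin 1, 2 and 3 (0.0947, 0.0866 and 0.109), with no filter (0.0719), with replicate block (0.062), without both (0.151) and with voom on recovered reads (0.13), over a range of 0.00386 to 0.151. The calls of Psrc1 and Plk2 (adjusted p = 0.0643 to 0.0723) were lost without both.

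Immediate early genes, which also respond to tissue handling, rose in 9 of 24 cases (median 0.94 log2 units), at counts of 5, 2 and 6 without control 1, 2 and 3, 6, 16 and 3 without bleomycin 1, 2 and 3, and 1 without both. Ier3 stood at 11.4, 11.6 and 11.6 FPKM in control and 88.1, 30.7 and 40.01 FPKM in bleomycin. Ier3 rose by 1.96 ± 0.32 log2 units (adjusted p = 0.011). Junb, a subunit of AP-1, stood at 48.6, 36.5 and 50.7 FPKM in control and 269, 107 and 181 FPKM in bleomycin, and bleomycin 2 was the lowest of its group for both genes. Junb rose by 1.93 ± 0.32 log2 units (adjusted p = 0.0114). Of 28 genes of hypoxia and glycolysis 8 rose and 1 fell, at counts of rises of 2, 3 and 3 without control 1, 2 and 3, 2, 6 and 5 without bleomycin 1, 2 and 3, and 0 without both. They included the glucose transporter gene Slc2a1 (1.69 ± 0.28, adjusted p = 0.0113) and the glycolytic enzyme gene Pgam1 (0.93 ± 0.13, adjusted p = 0.00665). In the antioxidant list 3 of 30 rose and 2 fell, and for 3 of the 30 the filter fixed the direction upward. The falls numbered 2, 0 and 1 without control 1, 2 and 3, 1, 2 and 1 without bleomycin 1, 2 and 3, and 1 without both. Cat, the gene of catalase, went from 87.003, 98.6 and 88.6 to 56.999, 58.8 and 58.5 FPKM. Cat fell by 0.64 ± 0.11 log2 units (adjusted p = 0.0117). Of 21 genes of the unfolded protein response none passed in the comparison as reported (limma) or with voom, and 9 were higher at an unadjusted p under 0.05. Asns of that list was called at a mean FPKM of at least 5 (adjusted p = 0.0497, range 0.0497 to 0.176). The call of Junb was lost on leaving out control 2 (adjusted p = 0.0511) and without both (0.0666), over a range of 0.00826 to 0.0666. The call of Slc2a1 was lost on leaving out control 2 (adjusted p = 0.0509) and without both (0.0905), over a range of 0.0102 to 0.0905. The call of Cat was lost on leaving out control 2 (adjusted p = 0.0549) and without both (0.0976), over a range of 0.0109 to 0.0976. The call of Pgam1 (adjusted p = 0.0721) was lost without both.

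In the dermis, several genes of the collagen fibril fell while other matrix genes rose. Of 27 collagen genes 2 rose and 6 fell, and of 25 genes that process collagen 2 rose and 6 fell. The count of falls was 4, 4 and 5 without control 1, 2 and 3, 3, 5 and 3 without bleomycin 1, 2 and 3, and 0 without both for collagens. For the enzymes it was 2, 2 and 5 without control 1, 2 and 3, 2, 3 and 2 without bleomycin 1, 2 and 3, and 0 without both, and 2 with no filter. Col1a2, a chain of type I collagen, stood at 853, 1077 and 878 FPKM in control and 245, 372 and 286 FPKM in bleomycin, each bleomycin value below each control value. Col1a2 fell by 1.65 ± 0.23 log2 units (adjusted p = 0.00734). The partner chain gene Col1a1 stood at 2483, 3048 and 2451 FPKM in control and 792, 1214 and 805 FPKM in bleomycin. Col1a1 fell by 1.53 ± 0.23 log2 units (adjusted p = 0.00823). Col3a1, the gene of type III collagen, stood at 998, 1278 and 958 FPKM in control and 391, 642 and 453 FPKM in bleomycin. Col3a1 fell by 1.14 ± 0.22 log2 units (adjusted p = 0.0196). Col6a6, a chain of the microfibrillar type VI collagen, went from 2.43, 4.62 and 2.26 to 0.288, 0.743 and 0.779 FPKM. Col6a6 fell by 1.33 ± 0.23 log2 units (adjusted p = 0.0131). It reached 1 FPKM in the control libraries alone, as did Col4a6, another of the 6 falls, so the filter fixed their direction. Pcolce2 and Pcolce encode enhancers of the protease that trims procollagen. Pcolce2 stood at 14.7, 19.01 and 14.5 FPKM in control and 0.836, 2.11 and 1.58 FPKM in bleomycin and Pcolce at 57.5, 70.8 and 50.6 FPKM in control and 26.5, 32.7 and 33.5 FPKM in bleomycin. Pcolce2 fell by 2.79 ± 0.37 log2 units (adjusted p = 0.00626) and Pcolce fell by 0.92 ± 0.15 log2 units (adjusted p = 0.011). Serpinh1, the collagen chaperone HSP47, went from 398, 413 and 308 to 137, 224 and 186 FPKM. Serpinh1 fell by 1.04 ± 0.23 log2 units (adjusted p = 0.0281). Against these, Col12a1, a collagen that coats fibrils, stood at 3.12, 7.02 and 5.97 FPKM in control and 50.6, 75.5 and 34.2 FPKM in bleomycin. Col12a1 rose by 3.08 ± 0.37 log2 units (adjusted p = 0.00451). P4ha3, a subunit of prolyl hydroxylase, stood at 0.918, 1.12 and 1.25 FPKM in control and 5.205, 5.69 and 5.28 FPKM in bleomycin. P4ha3 rose by 1.61 ± 0.18 log2 units (adjusted p = 0.00396). Both rises were robust and held in all alternatives run. The call of Serpinh1 was lost on leaving out control 1 and 2 (adjusted p = 0.0783 and 0.107), on leaving out bleomycin 1 and 3 (0.077 and 0.077), with no filter (0.0544), with replicate block (0.0587) and without both (0.161), over a range of 0.0267 to 0.161. The call of Col1a1 was lost without both (adjusted p = 0.0767), over a range of 0.0066 to 0.0767. The call of Col3a1 was lost on leaving out control 2 (adjusted p = 0.078), on leaving out bleomycin 1 and 3 (0.0637 and 0.0664) and without both (0.122), over a range of 0.0123 to 0.122. The calls of Col1a2, Col6a6, Pcolce2 and Pcolce (adjusted p = 0.0602 to 0.0871) were lost without both.

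Matrix genes of repair rose in part. Of 22 matricellular and repair genes 11 rose and 2 fell (median 1.08 log2 units, 4 robust rises). The count of rises was 6, 6 and 5 without control 1, 2 and 3, 5, 8 and 6 without bleomycin 1, 2 and 3, and 1 without both. Thbs1, which encodes thrombospondin 1, an activator of latent TGF-beta, stood at 13.4, 14.5 and 12.9 FPKM in control and 109, 58.9 and 103 FPKM in bleomycin, with bleomycin 2 lowest. Thbs1 rose by 2.59 ± 0.35 log2 units (adjusted p = 0.0066). The narrow groups of Wisp1, a secreted CCN family protein, stood at 1.65, 1.92 and 2.08 FPKM in control and 5.53, 6.69 and 5.69 FPKM in bleomycin. Wisp1 rose by 1.27 ± 0.18 log2 units (adjusted p = 0.00736). Sparc, a collagen-binding glycoprotein, went from 1245, 1523 and 1199 to 541, 696 and 547 FPKM. Sparc fell by 1.15 ± 0.19 log2 units (adjusted p = 0.0112). Of 26 matrix proteases and inhibitors 6 rose and 2 fell. Here rises numbered 6, 3 and 4 without control 1, 2 and 3, 4, 4 and 5 without bleomycin 1, 2 and 3, and 4 without both. The stromelysin gene Mmp11 went from 1.67, 2.80 and 4.84 to 17.5, 28.4 and 12.7 FPKM (2.32 ± 0.36, adjusted p = 0.00977). Plat, the tissue plasminogen activator, went from 3.42, 3.60 and 3.22 to 7.28, 7.69 and 7.15 FPKM (0.92 ± 0.09, adjusted p = 0.00341). Timp4, an inhibitor of metalloproteinases, went from 4.64, 5.81 and 4.64 to 0.614, 0.94 and 1.299 FPKM (-1.64 ± 0.17, adjusted p = 0.00345), and the metalloproteinase gene Mmp27 went from 4.53, 5.06 and 4.68 to 0.555, 1.12 and 1.03 FPKM (-1.61 ± 0.18, adjusted p = 0.00396). All 4 were robust. The calls of Thbs1, Wisp1, Sparc and Mmp11 (adjusted p = 0.0661 to 0.0948) were lost without both.

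Among 28 TGF-beta and activin genes 5 rose, at counts of 5, 4 and 4 without control 1, 2 and 3, 4, 4 and 4 without bleomycin 1, 2 and 3, and 2 without both. The activin subunit genes Inhbb and Inhba encode secreted relatives of TGF-beta. Inhbb stood at 3.77, 3.37 and 5.35 FPKM in control and 18.8, 25.1 and 16.2 FPKM in bleomycin. Inhbb rose by 2.02 ± 0.23 log2 units (adjusted p = 0.00396). Inhba stood at 0.972, 1.20 and 1.14 FPKM in control and 5.16, 6.09 and 4.08 FPKM in bleomycin. Inhba rose by 1.53 ± 0.20 log2 units (adjusted p = 0.00568). The SMAD feedback inhibitor gene Skil rose by 1.15 ± 0.15 log2 units (adjusted p = 0.00609). The latent TGF-beta binding protein gene Ltbp2 rose by 1.90 ± 0.31 log2 units (adjusted p = 0.0114). Tgfb1, the ligand itself, stood at 14.7, 10.8 and 9.59 FPKM in control and 17.02, 18.9 and 21.8 FPKM in bleomycin and did not pass (0.69 ± 0.21, adjusted p = 0.0802). The calls of Inhba, Skil and Ltbp2 (adjusted p = 0.0608 to 0.0976) were lost without both.

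Several contractile and vessel genes fell. Of 11 smooth muscle and myofibroblast genes 4 fell, and these 4 were robust. Falls numbered 4, 4 and 4 without control 1, 2 and 3, 4, 4 and 4 without bleomycin 1, 2 and 3, and 1 without both. Lmod1, an actin-nucleating protein of smooth muscle, stood at 8.38, 8.09 and 8.17 FPKM in control and 3.06, 2.66 and 2.18 FPKM in bleomycin, each group within a narrow range. Lmod1 fell by 1.35 ± 0.17 log2 units (adjusted p = 0.00511). The smooth muscle myosin heavy chain gene Myh11 stood at 38.3, 34.1 and 36.1 FPKM in control and 10.9, 12.8 and 8.38 FPKM in bleomycin. Myh11 fell by 1.69 ± 0.24 log2 units (adjusted p = 0.00791). The kinase gene Mylk fell by 1.20 ± 0.17 log2 units (adjusted p = 0.00725), and the light chain gene Myl9 fell by 1.14 ± 0.19 log2 units (adjusted p = 0.0121). Acta2 stood at 172, 132 and 138 FPKM in control and 86.5, 77.01 and 129 FPKM in bleomycin and did not pass (-0.62 ± 0.30, adjusted p = 0.222). The summed level of the list was 914 to 1159.9 FPKM in control and 403 to 973 FPKM in bleomycin. Of 22 endothelial genes 4 fell and 1 rose. The count of falls was 3, 1 and 3 without control 1, 2 and 3, 2, 3 and 2 without bleomycin 1, 2 and 3, and 1 without both, and 12 with only the 6 libraries in the fit. In 16 of the 22 the bleomycin values lay below all control values, beside 17.8% of all tested genes. The summed level of the endothelial list was 533 to 594 FPKM in control and 323 to 335 FPKM in bleomycin. The transcription factor gene Sox17 of arterial endothelium stood at 5.73, 5.57 and 5.50 FPKM in control and 1.52, 1.48 and 1.46 FPKM in bleomycin. Sox17 fell by 1.41 ± 0.21 log2 units (adjusted p = 0.00825). In the nitric oxide pathway, 4 of 20 genes rose and 3 fell. Rises in it numbered 1, 1 and 1 without control 1, 2 and 3, 1, 1 and 1 without bleomycin 1, 2 and 3, and 1 without both. Gucy1a1, the alpha subunit gene of soluble guanylate cyclase, the receptor of nitric oxide, went from 7.09, 5.60 and 7.23 to 1.44, 2.06 and 2.17 FPKM. Gucy1a1 fell by 1.40 ± 0.18 log2 units (adjusted p = 0.00539). Gch1, which makes a cofactor of nitric oxide synthases, went from 1.56, 1.45 and 1.35 to 3.18, 3.73 and 4.04 FPKM. Gch1 rose by 0.92 ± 0.13 log2 units (adjusted p = 0.0066). Smooth muscle, endothelial and guanylate cyclase genes are expressed in vessel walls, and the part of vessel content in these falls was not tested. The calls of Mylk, Myh11, Myl9, Sox17 and Gucy1a1 (adjusted p = 0.0589 to 0.0979) were lost without both.

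**Figure D4:**
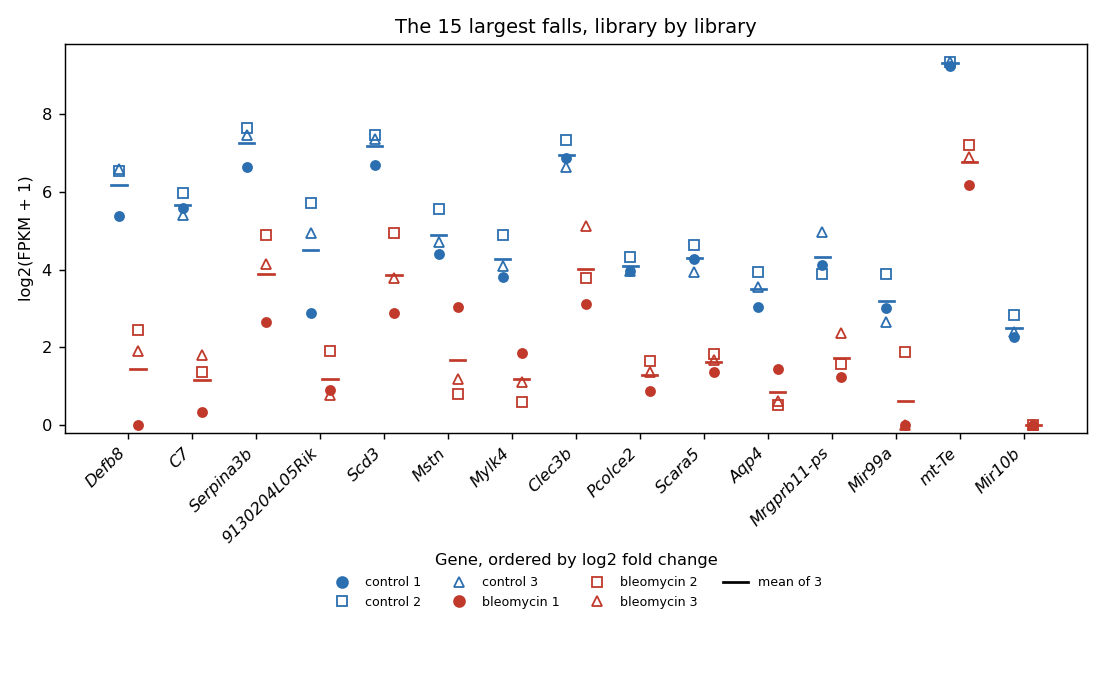
The 15 called genes with the largest falls, with log2(FPKM + 1) of each library on the vertical axis, control in blue and bleomycin in red, and bars at the means of 3. Every control value lies above every bleomycin value, and the muscle genes Mstn, Mylk4 and Aqp4 are highest within bleomycin in bleomycin 1.

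A few fibroblast and Wnt genes were called in each direction, beside 5.05% of all tested genes higher and 3.97% lower. Of 18 genes of fibroblast identity 2 rose and 2 fell (median -0.51 log2 units). The falls among them numbered 1, 1 and 1 without control 1, 2 and 3, 1, 2 and 2 without bleomycin 1, 2 and 3, and 0 without both. Sfrp2, a secreted modulator of Wnt signals, went from 1.97, 6.38 and 2.27 to 20.7, 23.7 and 15.9 FPKM. Sfrp2 rose by 2.32 ± 0.34 log2 units (adjusted p = 0.00823). Cd34, a surface protein of fibroblasts and endothelium, went from 42.4, 45.4 and 31.5 to 13.6, 15.7 and 17.9 FPKM. Cd34 fell by 1.28 ± 0.18 log2 units (adjusted p = 0.00725). In the Wnt list 3 of 28 rose and 3 fell (median 0.02 log2 units). Falls of that list numbered 3, 2 and 2 without control 1, 2 and 3, 3, 3 and 2 without bleomycin 1, 2 and 3, and 1 without both. The secreted antagonist gene Frzb went from 3.72, 5.59 and 4.09 to 1.35, 0.927 and 0.928 FPKM. Frzb fell by 1.39 ± 0.21 log2 units (adjusted p = 0.00823). Rspo1, an agonist, went from 7.96, 7.18 and 8.46 to 1.55, 3.04 and 1.23 FPKM. Rspo1 fell by 1.64 ± 0.21 log2 units (adjusted p = 0.00559). The calls of Sfrp2, Cd34 and Rspo1 (adjusted p = 0.0632 to 0.0713) were lost without both.

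The largest falls involved genes of several cell types. C7 (ENSMUSG00000079105, chromosome 15, 4988762 to 5063740), a terminal complement component, stood at 46.7, 62.4 and 41.8 FPKM in control and 0.252, 1.55 and 2.48 FPKM in bleomycin. C7 fell by 4.50 ± 0.67 log2 units (adjusted p = 0.0085). The ferritin receptor gene Scara5, known from fibroblasts, stood at 18.4, 24.002 and 14.4 FPKM in control and 1.59, 2.58 and 2.21 FPKM in bleomycin. Scara5 fell by 2.66 ± 0.35 log2 units (adjusted p = 0.00567). Scd3, a desaturase of sebaceous glands, went from 103, 177 and 165 to 6.38, 29.7 and 12.7 FPKM. Scd3 fell by 3.31 ± 0.54 log2 units (adjusted p = 0.0113). Of 16 sebaceous genes 3 fell, at counts of 3, 0 and 1 without control 1, 2 and 3, 2, 6 and 1 without bleomycin 1, 2 and 3, and 0 without both. Of 26 adipocyte genes 5 fell, at counts of 6, 1 and 1 without control 1, 2 and 3, 1, 5 and 1 without bleomycin 1, 2 and 3, and 1 without both. In 22 of the 26 the groups did not overlap, with all bleomycin values lower, beside 17.8% of all tested genes. Aqp7, the glycerol channel of fat cells, stood at 3.61, 7.02 and 4.23 FPKM in control and 0.607, 1.0002 and 0.782 FPKM in bleomycin (-1.69 ± 0.21, adjusted p = 0.00511). Mylk4, Aqp4 and Mstn, which are expressed in skeletal muscle, fell. Mylk4 stood at 12.95, 28.7 and 16.1 FPKM in control and 2.64, 0.518 and 1.14 FPKM in bleomycin (-3.08 ± 0.50, adjusted p = 0.011). Aqp4, a water channel, stood at 7.17, 14.3 and 10.8 FPKM in control and 1.73, 0.42 and 0.547 FPKM in bleomycin (-2.65 ± 0.41, adjusted p = 0.00921). None of 19 skeletal muscle genes of the list passed in the comparison as reported or with voom. Myh4 of the list was called lower after quantile normalization, without bleomycin 1 and without both (adjusted p = 0.0457, 0.0133 and 0.0311, range 0.0133 to 0.182). At an unadjusted p under 0.05, 5 of the 19 were lower, and their median was -1.33 log2 units. In 12 of the 19 all bleomycin values were lower, beside 17.8% of all tested genes. Tnnc2 of that list was at 0 in all 6 libraries. The part of muscle content in the falls of Mylk4, Aqp4 and Mstn was not tested. The call of Scd3 was lost on leaving out control 2 (adjusted p = 0.0522) and without both (0.0589), over a range of 0.0039 to 0.0589. The call of Mstn was lost on leaving out control 2 (adjusted p = 0.0709) and on leaving out bleomycin 3 (0.0617), over a range of 0.0106 to 0.0709. The calls of C7 and Scara5 (adjusted p = 0.064 to 0.0742) were lost without both.

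Serpina3b, a serine protease inhibitor, went from 98.2, 201 and 176 to 5.25, 28.6 and 16.6 FPKM. Serpina3b fell by 3.36 ± 0.56 log2 units (adjusted p = 0.0114). Its neighbour Serpina3h, annotated as a transcribed unprocessed pseudogene, went from 30.7, 21.4 and 47.6 to 5.60, 8.53 and 6.64 FPKM. Serpina3h fell by 2.06 ± 0.30 log2 units (adjusted p = 0.00823). In the serpin list 4 of 26 genes rose and 3 fell, Serpina3h among the falls, and 1 of the 26 had its direction fixed upward by the filter. With 1 library left out, rises of that list numbered 0 to 3 and falls 1 to 3. The clock output gene Dbp, whose level follows the time of day, went from 12.1, 9.50 and 11.1 to 4.43, 1.99 and 2.12 FPKM. Dbp fell by 1.68 ± 0.31 log2 units (adjusted p = 0.0154), and the time of sampling was not stated. The locus of the microRNA gene Mir10b was listed at 3.85, 6.12 and 4.23 FPKM in control and at 0 in bleomycin, with 16 reads over the control libraries. A messenger RNA library does not measure the mature microRNA, and reads of overlapping transcripts cannot be told apart from those of the locus. The call of Serpina3b was lost on leaving out control 2 (adjusted p = 0.0532), over a range of 0.00736 to 0.0532. The call of Dbp was lost on leaving out control 1 and 2 (adjusted p = 0.0507 and 0.0523), on leaving out bleomycin 3 (0.06) and without both (0.0551), over a range of 0.0133 to 0.06. The call of Serpina3h (adjusted p = 0.0742) was lost without both.

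Transcripts of the mitochondrial genome fell while nuclear genes of the respiratory chain did not pass. Of 13 mitochondrially encoded genes 8 fell. The count was 5, 6 and 5 without control 1, 2 and 3, 6, 6 and 6 without bleomycin 1, 2 and 3, and 0 without both, and 2 after quantile normalization, under which the median went from -1.18 to -0.55 log2 units. Reads of the mitochondrial genome were 8.02%, 6.61% and 7.82% of all reads in control and 4.17%, 3.80% and 3.77% in bleomycin. The complex I subunit gene mt-Nd2 stood at 6662, 5691 and 6352 FPKM in control and 2451, 2363 and 2407 FPKM in bleomycin. mt-Nd2 fell by 1.37 ± 0.20 log2 units (adjusted p = 0.00804). Its complex I partner mt-Nd4 stood at 5239, 4529.8 and 5125 FPKM in control and 2289.6, 1966 and 2059 FPKM in bleomycin. mt-Nd4 fell by 1.24 ± 0.20 log2 units (adjusted p = 0.0114). None of 35 nuclear-encoded respiratory chain genes passed with limma or voom, with 1 higher and 4 lower at an unadjusted p under 0.05 and a median of -0.17 log2 units. The lowest adjusted p among them was that of Ndufs1, at 15.9, 19.1 and 14.8 FPKM in control and 13.6, 9.26 and 11.8 FPKM in bleomycin (-0.50 ± 0.16, adjusted p = 0.0885). The call of mt-Nd2 was lost with quantile normalization (adjusted p = 0.227) and without both (0.0859), over a range of 0.0075 to 0.227. The call of mt-Nd4 was lost with quantile normalization (adjusted p = 0.11) and without both (0.0923), over a range of 0.0107 to 0.11.

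**Figure D5:**
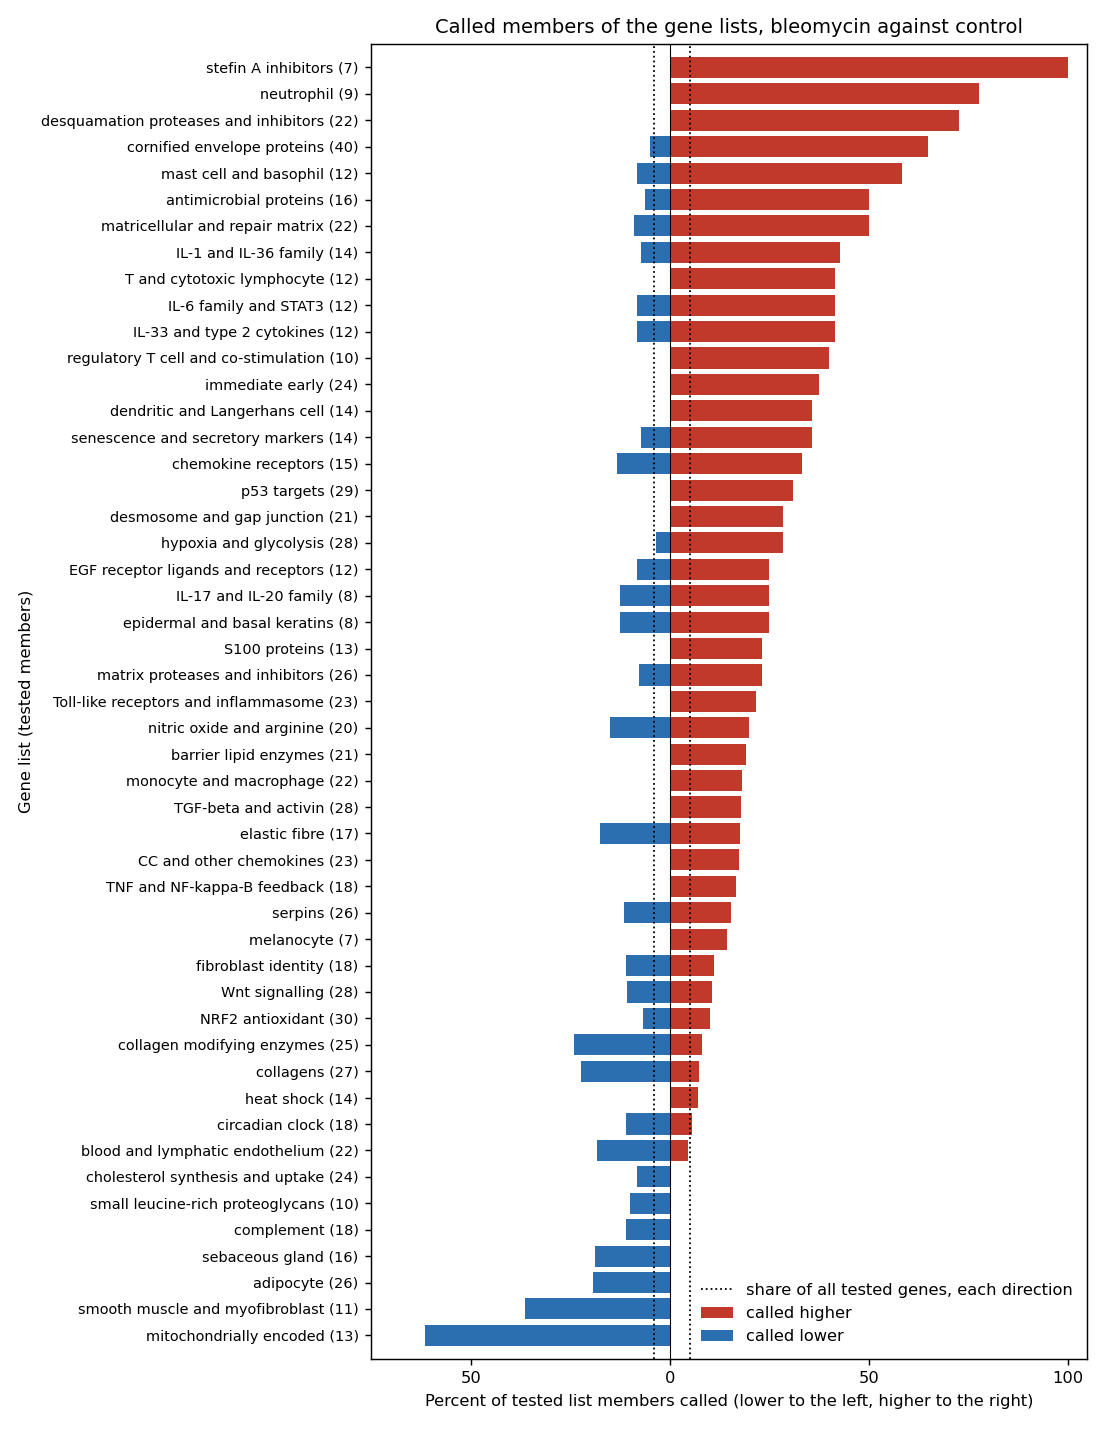
Share of the tested members of each gene list (in parentheses, its number of tested members, at least 5) that rose (red, right) or fell (blue, left), beside dotted lines at the share of all tested genes, 5.05% higher and 3.97% lower. Stefin A (7 of 7), neutrophil (7 of 9), desquamation (16 of 22) and envelope (26 of 40) genes lead the rises, and mitochondrially encoded (8 of 13) and smooth muscle (4 of 11) genes lead the falls. The filter fixed the direction upward for 3 of these tested neutrophil genes, 2 desquamation genes and 12 envelope genes. Of 21 listed neutrophil genes only 9 were tested.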

How the data were processed

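RNA was extracted from skin with a column kit and made into messenger RNA libraries with the SMARTer kit, per the labels' protocols. Expression was deposited as FPKM, computed by the authors for each gene from the length that the table gives beside it. The build mm10 is named in the submitters' processing notes, while the aligner, counter, strand setting and annotation are not given in the sources used here. Multiplied by length, FPKM rose in equal steps within a library (100% of values within 0.01), and these steps gave the reads of each gene. The library size behind them was 0.916 to 0.967 times the summed reads in the control libraries and 0.995 to 1.07 times in the bleomycin libraries. This scaling thus differed between the groups without overlap, and no source gives its method. Intervals and limits from reads cover counting error only.

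Groups came from sample titles. Genes with at least 1 FPKM in at least 3 of the 6 libraries were tested in R 4.3.3 by limma 3.58.1 on the scale of log2(FPKM + 1) (eBayes with trend and robust, 3 group means over all 9 libraries, two-sided), with Benjamini-Hochberg adjustment over 14013 genes and a threshold of 0.05. The comparison, the 63 gene lists and the rules were chosen with earlier results of these data known. Of 102 symbols with several gene identifiers, list members took the one of highest mean. Named were the 15 largest rises and falls, up to 4 genes per list by smallest p, the highest in level, genes at 0 in control, and 12 set names, of which the text gives a part. The genes of the promoter windows and of the 1 Mb windows, and marker genes below the filter, were chosen after their values were seen. Promoters came from RefSeq (GRCm38.p6). Alternatives were other pseudocounts, filters and scalings, a hair follicle covariate, a replicate block, voom on recovered reads, and leaving out libraries. Tables and plots used Python 3.11.15, pandas 2.3.3 and matplotlib 3.10.9.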

Additional observations from a re-analysis of the deposited data

Results flagged for a closer look

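Listed genes below the filter were set apart where each bleomycin library held more than 3 reads and no control library did, a signal outside the tested genes. They were not tested. Summed over the 3 bleomycin libraries, the protease gene Mmp10 had 224 reads, the myeloid receptor gene Trem1 221, the chemokine gene Cxcl3 165, the inhibitory receptor gene Pdcd1 153, the cytokine genes Il24, Csf3 and Il17f 152, 140 and 35, the envelope gene Sprr2k 71, the complement gene Cfi 66, the neutrophil genes Retnlg and Ngp 58 and 15, the antibody gene Ighg2c 50 and the mast cell protease gene Mcpt2 32. Il24 held 73, 75 and 4 reads and Cxcl3 12, 29 and 124 reads in bleomycin 1, 2 and 3, so single libraries carried much of some of these sums.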

How the results depend on the processing

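Against 1263 calls (707 higher, 556 lower), calls numbered 784 (463 and 321) with no filter, 796 with a mean FPKM of at least 5 (473 and 323), 200 (132 and 68) without both control 1 and bleomycin 1, and 366 to 721 with 1 library left out (216 to 420 higher, 150 to 301 lower). The replicate block gave 1100 calls, of which 955 were shared with the comparison as reported. Whether the same replicate number paired samples was not stated. Deviations from the group means correlated at 0.541, -0.056 and 0.46 for numbers 1, 2 and 3, and numbers 1 and 3 but not 2 correlated best with their own number. With 3 libraries a group these deviations depend on each other, so the correlations cannot settle the pairing. The other alternatives gave 994 (hair follicle covariate) to 1637 calls (only the 6 libraries in the fit). The 5106 genes without overlap became 3281 at a mean FPKM of at least 5 and 8516 without both libraries. Of 206 named called genes, 49 were called in all alternatives run, 106 in each fit with 1 library left out and 66 without both. The estimate of Hba-a1, which was not called, ran from -0.0248 (without bleomycin 3) to 1.54 (without bleomycin 2). A negative binomial test on the recovered reads was planned but was not run, since the table holds FPKM. With 3 libraries a group, a gene below the threshold is not shown to be unaltered.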

Other observations

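Further gene groups changed in part. Of 18 genes of tumour necrosis factor and its feedback 3 rose and all 18 estimates were above 0, 3 of the 18 with their direction fixed by the filter. These rises numbered 2, 1 and 3 without control 1, 2 and 3, 2, 4 and 2 without bleomycin 1, 2 and 3, and 1 without both. The lymphotoxin gene Ltb went from 0.777, 0.628 and 0.835 to 3.12, 4.61 and 4.41 FPKM. Ltb rose by 1.52 ± 0.16 log2 units (adjusted p = 0.00345). Its direction and that of Serpinb3a were fixed by the filter. Nfkbiz, a nuclear regulator induced by IL-1, went from 5.73, 3.48 and 4.88 to 31.5, 13.2 and 22.2 FPKM. Nfkbiz rose by 1.97 ± 0.33 log2 units (adjusted p = 0.0124). Of 15 chemokine receptor genes 5 rose and 2 fell, at counts of rises of 4, 2 and 2 without control 1, 2 and 3, 4, 3 and 2 without bleomycin 1, 2 and 3, and 2 without both. The filter fixed the direction of 2 of the 15 upward and of 1 downward. The scavenging receptor gene Ackr4 went from 4.46, 5.58 and 7.16 to 1.16, 2.93 and 1.36 FPKM. Ackr4 fell by 1.29 ± 0.24 log2 units (adjusted p = 0.0158). Serpinb3a, a cytoplasmic protease inhibitor of squamous epithelium, went from 0.241, 0.109 and 0 to 130.4, 11.2 and 27.3 FPKM. Serpinb3a rose by 5.003 ± 0.86 log2 units (adjusted p = 0.0135). The call of Nfkbiz was lost on leaving out control 2 (adjusted p = 0.056) and without both (0.0693), over a range of 0.00964 to 0.0693. The call of Ackr4 was lost on leaving out control 2 and 3 (adjusted p = 0.0622 and 0.0525), on leaving out bleomycin 1 and 3 (0.051 and 0.0606) and without both (0.0721), over a range of 0.0112 to 0.0721. The call of Serpinb3a was lost on leaving out control 2 (adjusted p = 0.0602), without both (0.0618) and with voom on recovered reads (0.191), over a range of 0.00666 to 0.191.

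In the elastic fibre list 3 of 17 genes rose and 3 fell, and rises numbered 2, 2 and 2 without control 1, 2 and 3, 2, 3 and 3 without bleomycin 1, 2 and 3, and 0 without both. Fbn2, a fibrillin of developing tissue, went from 1.54, 1.48 and 1.301 to 3.61, 5.51 and 2.74 FPKM. Fbn2 rose by 0.99 ± 0.20 log2 units (adjusted p = 0.0211). Of 10 small leucine-rich proteoglycan genes 1 fell, Ecm2, which went from 7.60, 14.5 and 9.55 to 1.999, 2.44 and 2.84 FPKM. Ecm2 fell by 1.72 ± 0.33 log2 units (adjusted p = 0.0179). Of 14 genes of dendritic and Langerhans cells 5 rose, at counts of 2, 1 and 2 without control 1, 2 and 3, 2, 1 and 2 without bleomycin 1, 2 and 3, and 1 without both. Of 24 genes of cholesterol synthesis and uptake 2 fell, and of 18 clock genes 1 rose and 2 fell. None of 27 hair follicle, 14 Schwann cell or 6 haemoglobin genes passed in the comparison as reported (limma) or with voom, and at an unadjusted p under 0.05 the counts were 1, 2 and 0. Krt84 of the hair follicle list was called with only the 6 libraries in the fit (adjusted p = 0.0346, range 0.0346 to 0.38), and 1 Schwann cell gene without control 2. The call of Fbn2 was lost on leaving out control 1, 2 and 3 (adjusted p = 0.0546, 0.0743 and 0.0656), on leaving out bleomycin 1 (0.0585) and without both (0.112), over a range of 0.0198 to 0.112. The call of Ecm2 was lost on leaving out control 2 and 3 (adjusted p = 0.0709 and 0.0503), on leaving out bleomycin 1 and 2 (0.0607 and 0.0512) and without both (0.0871), over a range of 0.0112 to 0.0871.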
